A study of Mus musculus with 68 samples.

Results

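Transcripts of 10 genes were followed through tunicamycin (TM) treatment of primary mouse embryonic fibroblasts (MEFs): the AP-1 subunit genes Fos, Fosb, Fosl1, Fosl2, Jun, Junb and Jund, and Egr1, Ier3 and Klf6, which belong with them to the immediate early genes. The members were chosen by name, and all 10 were found, among the 13197 genes that the founder tables list and the 12803 of the crosses. The study asked how the response to endoplasmic reticulum (ER) stress varies with genetic background and compared TM with control cells by RNA sequencing. MEFs came from the 8 founder strains of the Collaborative Cross, which the labels write 129S1Sv/ImJ (129), A/J (A), C57BL/6J (B6), CAST/EiJ (CAST), NOD/ShiLtJ (NOD), NZO/H1LtJ (NZO), PWK/PhJ (PWK) and WSB/EiJ (WSB), and from 5 F1 crosses of a B6 mother with a 129, CAST, NOD, NZO or WSB father (x129, xCAST, xNOD, xNZO and xWSB). Cells of every group received either 2 ug/ml of TM or the DMSO vehicle for 4 h, with 40 founder libraries and 28 F1 libraries in 26 groups of 2 or 3. Each genotype was a pool of female embryos from a single litter, thawed at passage 3 or 4 and passaged further before TM, so its libraries are cultures of 1 pooled line and every p-value below measures the spread between such cultures, which does not cover differences between litters.

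AP-1 is a dimer of basic leucine zipper proteins. Jun proteins pair with each other or with a Fos protein, whereas Fos proteins need a Jun partner to bind DNA, and the dimers recognise the AP-1 site (TGANTCA) or the related cAMP response element. Fos, Fosb, Jun, Junb, Egr1 and Ier3 are classic immediate early genes: their transcription starts within minutes of growth factors or stress without new protein synthesis, through MAP kinases, serum response factor with its Elk partners, and CREB or ATF2, and their mRNAs decay quickly. Fosl1, Fosl2 and Jund encode subunits that are usually present for longer. TM blocks the first step of N-linked glycosylation, so that unfolded glycoproteins load the ER and the sensors IRE1, PERK and ATF6 become active, of which IRE1 is also linked to the Jun kinases through TRAF2.

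Expression values are reads per gene scaled between libraries by the authors, not divided by gene length, and levels are compared within the founder set or within the F1 set, which were scaled separately. In the libraries whose reads could be recovered, 7091923 to 21530282 reads fell on genes in the founder set and 6442976 to 29528457 in the F1 set. The fibroblast markers Col1a1, Col1a2 and Vim were high in every library, with Thy1 down to 1.38 in the lowest founder library. Of the 6 markers on that list (those, Pdgfrb and Fbn1) 0 passed in either set by limma or edgeR, with 6 below control at an unadjusted p under 0.05 in founders and 3 in crosses. No share of all genes was taken at that unadjusted level, here or below, so these counts have no background. In the mean responses many genes reach that level in limma. Jund reached it in founders at rank 6027 of 13197 genes, and Fosl2 in crosses at rank 5403 of 12803. All 4 canonical ER stress genes rose in both sets (mean response of Hspa5 2.82, Ddit3 3.90, Herpud1 4.30 and Xbp1 1.18 on the log2 scale in founders). Of 9 myeloid markers tested in founders 3 fell (Cd68 -0.63, Laptm5 -0.96 and Lyz2 -1.04), and the summed level of the list was 9.56 to 66.4 in controls and 6.83 to 47.9 with TM. In the F1 set 0 of 5 passed by limma, 1 was lower by edgeR and 4 at an unadjusted p under 0.05, with sums of 5.91 to 23.1 and 3.20 to 12.6. Endothelial (Pecam1, Cdh5, Kdr, Tek and Emcn) and epithelial (Krt8, Krt18 and Cldn4, with Cdh1 in founders) lists held 0 past the threshold by limma; at an unadjusted p under 0.05 there were 1 and 2 in founders and 0 and 1 in crosses, and edgeR called 1 epithelial gene lower in founders. The 10 members together summed to 1177 to 1718 scaled reads in founder controls and to 1783 to 2898 with TM, and to 1112 to 1308 and 1540.0 to 2125 in the F1 set, with no overlap in either set. The part of the few other cells in the members' levels was not tested, and in such bulk samples a changed share of cells and a changed amount of RNA per cell cannot be told apart.

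The base composition of the libraries also moved with treatment. Each gene's log2 level was taken relative to its mean over the libraries of a set, and the median over the GC-richest 10% of genes less that over the GC-poorest 10% gave 1 value per library. This value had a median of 0.330 (log2) in founder controls and -0.381 with TM, and of 0.236 and -0.250 in the F1 set. It was lower with TM in 13 of 13 genotypes. Since it moved with TM, a shift of the libraries and a response of GC-rich or GC-poor genes cannot be told apart, and a correction can also remove response. Values after a correction of each library for GC content and transcript length are given beside the members' own. The part of base composition in the members' values was not tested. The members' GC content ran from 42.4% in Klf6 to 67.2% in Jund. Founder libraries A control replicate 1, A TM replicate 2 and NZO TM replicate 3, and F1 libraries xNZO control replicate 3 and xWSB control replicate 1, stand apart. Each was the lowest of its group and correlated with it below 0.96, and values that change without them are given beside the results. A TM replicate 1 (0.958) was also below that limit but was kept, since only the lowest library of a group was taken.

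RefSeq sequence of the 250 bases before the gene start (GRCm38.p6) was matched by symbol for 8 of the 10 members, and sites further upstream were not searched. Those of Fos, Junb, Ier3 and Klf6 are shown, written 5′ to 3′ on the gene's own strand, since these genes differ in base composition and in how TM changed them. Capitals mark the letters of the core of the cAMP response element (TGACG), of the TATA box (TATAAA) and of the CCAAT box (CCAAT), searched on both strands.
Fos chr12:85473640-85473889 (+): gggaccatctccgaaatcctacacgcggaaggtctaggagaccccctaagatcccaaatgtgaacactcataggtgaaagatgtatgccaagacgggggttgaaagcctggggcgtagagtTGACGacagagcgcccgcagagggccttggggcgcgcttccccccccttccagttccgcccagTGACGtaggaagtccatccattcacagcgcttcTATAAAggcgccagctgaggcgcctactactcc
Junb chr8:84978749-84978998 (-): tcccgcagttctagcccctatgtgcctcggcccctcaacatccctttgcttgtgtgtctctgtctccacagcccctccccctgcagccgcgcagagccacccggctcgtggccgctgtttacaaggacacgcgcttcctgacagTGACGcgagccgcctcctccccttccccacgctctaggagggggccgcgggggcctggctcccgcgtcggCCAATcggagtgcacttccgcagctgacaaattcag
Ier3 chr17:35821463-35821712 (+): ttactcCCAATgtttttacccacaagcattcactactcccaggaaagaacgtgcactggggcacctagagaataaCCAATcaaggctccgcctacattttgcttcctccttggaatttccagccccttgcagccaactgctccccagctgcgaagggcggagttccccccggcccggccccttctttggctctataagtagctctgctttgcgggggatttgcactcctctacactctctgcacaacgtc
Klf6 chr13:5861239-5861488 (+): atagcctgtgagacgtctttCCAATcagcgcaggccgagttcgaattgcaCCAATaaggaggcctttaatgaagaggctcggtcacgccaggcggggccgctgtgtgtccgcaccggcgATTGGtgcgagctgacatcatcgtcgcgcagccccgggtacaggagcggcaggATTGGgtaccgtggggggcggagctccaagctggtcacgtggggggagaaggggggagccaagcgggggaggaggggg
TGACG was found in 3 of the 8 member promoters (Fos, Fosb and Junb) and in 17.8% of all 32851 promoters of that length, TATAAA in 1 (Fos) and 12.4%, and CCAAT in 4 (Jun, Junb, Ier3 and Klf6) and 33.8%. GGGCGG, the GC box, was found in 6 of the 8 and in 32.7%. In 0 of the 8 were there letters of the AP-1 site TGANTCA (6.75% of all promoters), the full TGACGTCA (1.55%), the ATF4 element TGATGCAA (0.791%) or the CArG box that serum response factor binds (1.47%). TGACGTCA contains the core TGACG, so that the searches overlap. A match says only that these letters lie in the window, and no match only that they do not.

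TM raised Egr1, Klf6 and Junb in both sets, with Ier3 added in the founders, and lowered none of the 10 in the mean over genotypes. Over the 8 founder strains Egr1 responded with 2.80 fold, log2 1.49 (SE 0.106), adjusted p = 8.9e-13. Klf6 followed with 1.81 fold, log2 0.86 (SE 0.0448), adjusted p = 6.2e-16. Junb responded with 1.60 fold, log2 0.68 (SE 0.0621), adjusted p = 2.1e-10, and Ier3 with 1.52 fold, log2 0.61 (SE 0.0699), adjusted p = 2.0e-08. These 4 of 10 stand beside 6.04% of all genes called raised by the same rule (limma, adjusted p below 0.01 and at least 1.5 fold), and 0 of 10 beside 5.41% called lowered; at an unadjusted p under 0.05 the lowered side held Jund, and edgeR also called 0 lowered. Over the 5 F1 crosses Egr1 (2.33 fold, adjusted p = 5.8e-10), Junb (1.69 fold, adjusted p = 4.2e-07) and Klf6 (1.65 fold, adjusted p = 1.4e-09) were called, 3 of 10 beside 4.95% of all genes raised, and 0 beside 5.54% lowered, with 0 lowered also at an unadjusted p under 0.05 and by edgeR. The median response of the 10 members was 0.55 (log2) in founders and 0.46 in crosses, where the median of all genes was -0.037 and -0.040.

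**Figure D1:**
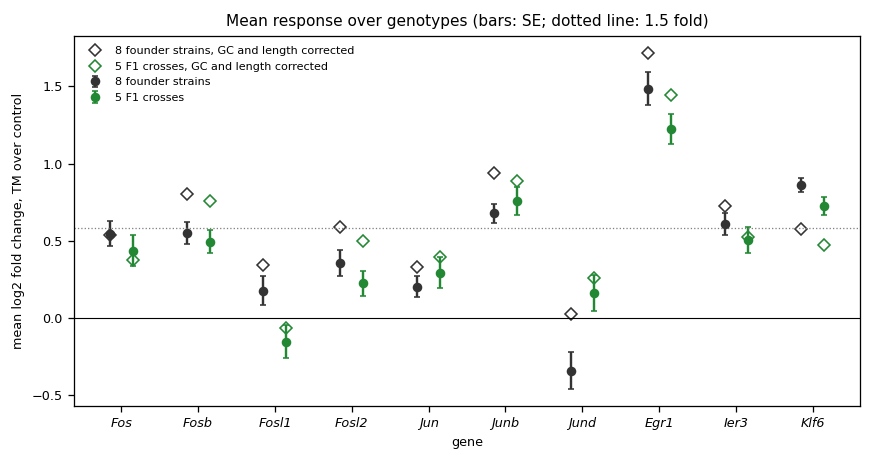
Mean response of each gene (x axis) to TM (y axis, mean log2 fold change of TM over control) in the 8 founder strains (black) and the 5 F1 crosses (green), with filled points for the values and bars for the SE from limma, open diamonds for the values after correction for GC content and transcript length, and a dotted line at 1.5 fold. Egr1 lies highest in both sets, and Jund in founders moves from -0.34 to 0.02 with the correction.

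Within single genotypes, 18 of 80 founder tests were called induced, beside 2.4% of all founder tests, and 0 lowered, beside 1.55%. At an unadjusted p under 0.05 there were 45 above and 4 below control, with no share of all genes taken at that level, and edgeR called 0 lowered. Egr1 and Klf6 were induced in the same 5 strains, B6, CAST, NOD, PWK and WSB. Junb and Ier3 were induced in PWK and WSB, and Fos, Fosb, Fosl1 and Fosl2 in PWK. In 129, A and NZO limma called no member, though there too few genes of any kind passed (40, 44 and 41 induced genes, against 810 in PWK); at an unadjusted p under 0.05 the members numbered 2 of 10 in 129, 6 in A and 6 in NZO, and edgeR called 0 in each. In 1 fit over all founder libraries, which shares 1 spread among the strains, limma called Egr1 and Klf6 in 129, A and NZO, Fos, Ier3 and Junb in A, and Junb in NZO. That fit also called Fos in WSB, and it lost the calls of Egr1 in B6 and NOD and of Fosl1 and Fosl2 in PWK. With GC and length corrected limma called Egr1 in 129 and Junb in A, and Egr1 in 129 was also called without 129 TM replicate 1 or 3. The 4 calls of WSB were lost in edgeR, which had 2 TM libraries of that strain, and when WSB control replicate 2 or 3 or WSB TM replicate 1 or 2 was left out. Without NZO TM replicate 3, Egr1, Fos, Fosb, Fosl2, Junb and Klf6 were induced in NZO as well, and Jund was lowered there. Among the crosses 13 of 50 tests were called induced, beside 2.54%, and 1 lowered, beside 1.47%: Egr1 and Klf6 in x129, xCAST, xNOD and xNZO, Junb in x129, xCAST and xNOD, Fosb and Ier3 in xCAST, and Fosl1 lowered in xNOD. Without xCAST TM replicate 1 the 13 became 8. In 1 fit over all F1 libraries the calls of Junb in x129 and xNOD were lost, and Egr1 and Fosb were called in xWSB. Of the 31 induced calls 11 held whichever library was left out: Fos, Fosb, Junb, Egr1, Ier3 and Klf6 in PWK, Egr1 and Klf6 in B6 and in x129, and Egr1 in CAST. Those of NOD were lost without any TM library of that strain, those of xNOD without any control, those of xNZO without either of control replicates 1 and 2 or any TM library, and those of xCAST without 2 to 4 of its 5 libraries each. Junb in x129 was lost without any control of that cross, and Klf6 in CAST without CAST TM replicate 2. In 53 of 80 founder tests every TM library lay above every control library, beside 22.5% of all tests, and in 3 below, beside 23.7%. For the crosses it was 28 of 50 above, beside 19.4%, and 1 below, beside 20.3%. Groups are small, so that such a separation is frequent among all genes.

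**Figure D2:**
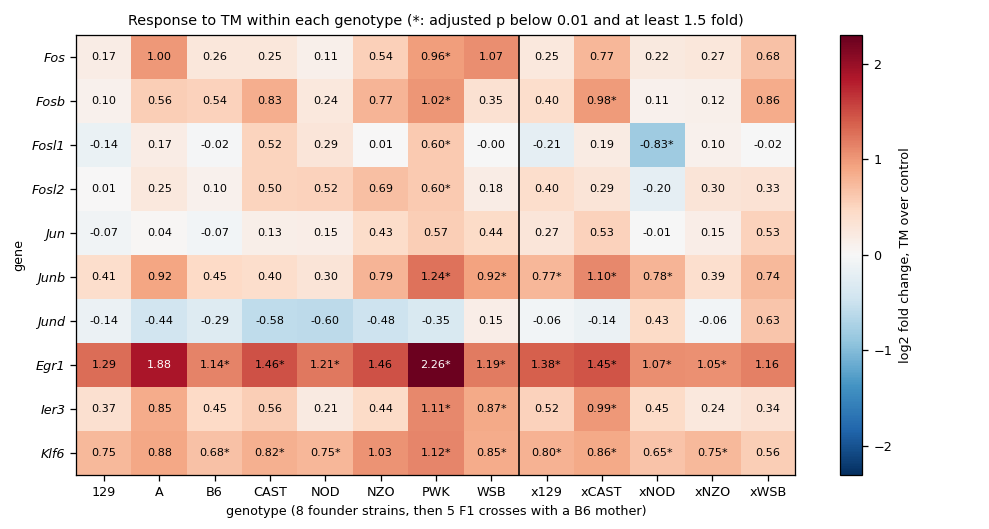
Response to TM of the 10 genes (rows) in the 8 founder strains and 5 F1 crosses (columns), as log2 of TM over control on the scale log2(value + 0.1), with an asterisk on tests past adjusted p below 0.01 and 1.5 fold in limma. Red is above and blue below control. The rows of Egr1, Klf6, Junb, Ier3, Fos and Fosb lie above control in every column, and 5 founder strains carry an asterisk in those of Egr1 and Klf6.

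Fos (chr12:85473890-85477273, + strand, GRCm38 here and below) is the prototype subunit and was with Fosb the scarcest member per kb: its lowest founder control library held 25 reads, against a median of 89.5, so that counting error is large in its values. In 129, Fos was at 7.98 and 6.80 in the controls and at 8.97, 9.43 and 6.80 with TM. In A, Fos was at 4.76, 7.02 and 8.67 in the controls and at 14.4, 13.7 and 12.03 with TM. In B6, Fos was at 4.74 and 4.86 in the controls and at 6.32 and 5.29 with TM. The TM values of A lay above all of its controls, while those of 129 overlapped them. In CAST, Fos was at 3.57 and 3.62 in the controls and at 4.58 and 4.06 with TM. In NOD, Fos was at 6.17 and 9.33 in the controls and at 7.86, 9.46 and 7.44 with TM. In NZO, Fos was at 6.85 and 8.06 in the controls and at 12.6, 12.7 and 8.03 with TM. CAST had the lowest Fos of the 8 strains under both conditions. In PWK, Fos was at 4.88, 6.25 and 6.94 in the controls and at 12.4, 12.7 and 10.2 with TM. In WSB, Fos was at 3.60 and 3.68 in the controls and at 7.64, 9.75 and 6.23 with TM. PWK was called induced at 1.95 fold (adjusted p = 5.6e-04). In WSB the change was larger, 2.10 fold (adjusted p = 0.02), and missed the threshold. The mean over founders, 1.46 fold, log2 0.55 (SE 0.0822), adjusted p = 2.0e-06, had a small p and stayed below 1.5 fold. In the crosses the mean response was 1.35 fold, log2 0.43 (SE 0.101), adjusted p = 0.0011. In xCAST, Fos was at 2.20 and 2.71 in the controls and at 5.33, 4.27 and 3.32 with TM. In xNZO, Fos was at 5.08, 6.01 and 7.19 in the controls and at 7.05, 7.47 and 7.34 with TM. In xWSB, Fos was at 3.84, 1.93 and 2.01 in the controls and at 4.93, 3.73 and 3.45 with TM. Of the 5 crosses xCAST and xNOD had all TM libraries of Fos above their controls.

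Fosb (chr7:19302696-19310051, - strand), a Fos paralogue with an early and brief transcript, had its lowest controls in PWK and CAST. In PWK, Fosb was at 6.21, 6.19 and 6.77 in the controls and at 12.7, 13.4 and 13.1 with TM. In CAST, Fosb was at 9.17 and 11.9 in the controls and at 16.3 and 21.4 with TM. In WSB, Fosb was at 12.5 and 13.7 in the controls and at 14.5, 19.7 and 16.2 with TM. All TM values of PWK were above its controls, at 2.03 fold (adjusted p = 5.0e-05). In 129, Fosb was at 21.8 and 25.7 in the controls and at 18.9, 29.7 and 29.5 with TM. In A, Fosb was at 12.7, 17.04 and 16.05 in the controls and at 23.8, 19.4 and 24.4 with TM. In B6, Fosb was at 12.7 and 12.5 in the controls and at 18.8 and 17.8 with TM. A and B6 had TM values above their controls, and 129 had not. In NOD, Fosb was at 16.7 and 27.6 in the controls and at 29.7, 27.5 and 20.1 with TM. In NZO, Fosb was at 15.4 and 15.7 in the controls and at 28.4, 27.2 and 24.6 with TM. The strains with the highest controls, 129 and NOD, had responses of 1.08 fold (adjusted p = 0.83) and 1.18 fold (adjusted p = 0.59). The founder mean was 1.47 fold, log2 0.55 (SE 0.0718), adjusted p = 1.7e-07, below 1.5 fold, and after the GC and length correction its log2 value was 0.80 (adjusted p = 1.6e-12), which passed the threshold. Among the crosses xCAST alone was called, with 1.97 fold (adjusted p = 0.0064), a call that was lost when any of 4 of its 5 libraries was left out. In xCAST, Fosb was at 10.9 and 10.5 in the controls and at 25.4, 19.8 and 18.7 with TM. In xWSB, Fosb was at 30.3, 24.8 and 21.2 in the controls and at 56.2, 41.8 and 40.9 with TM. The F1 mean was 1.41 fold, log2 0.49 (SE 0.0743), adjusted p = 8.8e-06, and 0.76 (adjusted p = 3.1e-08) (log2) after the correction. With GC and length corrected Fosb was also called in B6, CAST and x129, and in 1 fit over all F1 libraries in xWSB.

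Fosl1 (chr19:5447547-5455946, + strand), which encodes Fra-1, overlaps Ccdc85b on the opposite strand, and Fosl2 (chr5:32135801-32157842, + strand) encodes Fra-2; both subunits lack the transactivation domain of Fos. Since the counting is not stated to use strand, reads of overlapping genes cannot be told apart. Over the founder controls Fosl1 had 15.8, 27.8 and 38.3 scaled reads as its lowest, median and highest library, and with TM 18.8, 31.2 and 40.1. Its founder mean response was 1.13 fold, log2 0.18 (SE 0.0919), adjusted p = 0.10, and PWK was the founder strain called. With GC and length corrected it was 0.35 (adjusted p = 0.021) (log2), with CAST called as well. In PWK, Fosl1 was at 25.4, 21.3 and 21.8 in the controls and at 32.7, 37.5 and 33.8 with TM. In xNOD, Fosl1 was at 25.2, 25.2 and 28.4 in the controls and at 13.1 and 16.6 with TM. In xCAST, Fosl1 was at 30.5 and 25.1 in the controls and at 38.4, 33.5 and 24.2 with TM. TM over control was 1.52 fold (adjusted p = 0.0011) in PWK and 0.564 fold (adjusted p = 0.0094) in xNOD, where both TM libraries lay below all controls, and where the call did not survive leaving out any 1 control, nor edgeR or the GC correction. The PWK call was lost in edgeR, in 1 fit over all founder libraries, and without PWK control replicate 2 or 3 or TM replicate 2.

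Fosl2 was the most abundant Fos family transcript per kb (28.98 scaled reads per kb in founder controls, against 13.4 for Fosl1), with scaled reads at 187, 271 and 353 in founder controls and 230.3, 367 and 581 with TM, as lowest, median and highest library. Its founder mean response was 1.28 fold, log2 0.36 (SE 0.0832), adjusted p = 6.2e-04, below 1.5 fold, and 0.59 (adjusted p = 4.0e-11) (log2) after the correction, past the threshold. In PWK, Fosl2 was at 240.5, 230.2 and 232 in the controls and at 318, 383 and 369.6 with TM. In NZO, Fosl2 was at 324 and 316 in the controls and at 562, 581 and 422 with TM. In xNOD, Fosl2 was at 233, 238 and 260.3 in the controls and at 191 and 235 with TM. PWK was called at 1.52 fold (adjusted p = 2.6e-04), not in edgeR, and NZO at 1.61 fold (adjusted p = 0.10) had 1 low TM library, replicate 3, which stands apart. The PWK call was also lost in 1 fit over all founder libraries and without PWK TM replicate 2 or 3. With GC and length corrected CAST was called as well. In xNOD both TM values lay at or below the middle control, and the F1 mean was 1.17 fold, log2 0.23 (SE 0.0805), adjusted p = 0.025, and 0.50 (adjusted p = 2.8e-08) (log2) after the correction.

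Among the Jun genes Junb (chr8:84974484-84978718, - strand) responded most. JunB pairs with Fos proteins and often opposes c-Jun at its targets, and the gene overlaps Prdx2 on the opposite strand. In PWK, Junb was at 193, 162 and 146 in the controls and at 425, 396 and 359.8 with TM. In WSB, Junb was at 219.6 and 171 in the controls and at 349, 416 and 339 with TM. In A, Junb was at 364, 242 and 280.5 in the controls and at 449, 685 and 538 with TM. PWK and WSB were called, at 2.37 fold (adjusted p = 2.2e-06) and 1.89 fold (adjusted p = 0.0045), and A was not, at 1.89 fold (adjusted p = 0.15), though all of its TM libraries lay above its controls. In CAST, Junb was at 184 and 152 in the controls and at 228 and 213 with TM. In NZO, Junb was at 186 and 169 in the controls and at 274, 298 and 354 with TM. In NOD, Junb was at 182 and 182 in the controls and at 232, 231 and 211 with TM. The groups did not overlap here either. In B6, Junb was at 139 and 130.1 in the controls and at 195 and 173 with TM. In 129, Junb was at 161 and 159 in the controls and at 223, 253 and 169.8 with TM. B6 and 129 had the lowest Junb of the 8 strains under both conditions, and Junb separated TM from control libraries in all 13 genotypes. In x129, Junb was at 142, 133 and 137 in the controls and at 220.4, 298 and 195 with TM. In xCAST, Junb was at 167 and 145 in the controls and at 329, 321 and 350.2 with TM. In xNOD, Junb was at 125, 134 and 129 in the controls and at 208 and 236 with TM. In these 3 crosses the TM libraries lay clear of the controls and the calls were 1.70 fold (adjusted p = 0.0039), 2.14 fold (adjusted p = 8.8e-04) and 1.72 fold (adjusted p = 0.0048). In xNZO, Junb was at 127, 135 and 93.5 in the controls and at 154, 143 and 164 with TM. In xWSB, Junb was at 197, 129 and 85.8 in the controls and at 205, 220.5 and 225 with TM. With GC and length corrected the founder mean of Junb was 0.94 (adjusted p = 1.7e-18) and the F1 mean 0.89 (adjusted p = 1.2e-12) (log2). Junb was then also called in A, B6, CAST and NOD.

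Jun (chr4:95049034-95052222, - strand), which encodes c-Jun and is overlapped by the antisense gene Junos, was called in 0 of 13 genotypes by limma on the values as deposited. Its unadjusted p was under 0.05 with TM above control in 4 of the 13. It was called in PWK by edgeR and without PWK control replicate 1 or TM replicate 1 or 2, and with GC and length corrected in PWK (log2 0.70, adjusted p = 1.2e-04) and xCAST (log2 0.65, adjusted p = 0.006). Its founder values were 138, 175 and 323 in controls and 156, 194 and 338 with TM, as lowest, median and highest library. In PWK, Jun was at 184, 152 and 147 in the controls and at 221, 228 and 268 with TM. In B6, Jun was at 169 and 175 in the controls and at 172 and 156 with TM. In xCAST, Jun was at 129 and 121 in the controls and at 183, 151 and 210.3 with TM. The response was 1.48 fold (adjusted p = 0.0014) in PWK and 0.956 fold (adjusted p = 0.54) in B6. The mean was 1.15 fold, log2 0.20 (SE 0.0690), adjusted p = 0.014 in founders and 1.23 fold, log2 0.29 (SE 0.102), adjusted p = 0.021 in crosses, and 0.33 (adjusted p = 8.9e-05) and 0.40 (adjusted p = 0.0025) (log2) after the correction.

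Jund (chr8:70698949-70700616, + strand), a single-exon gene overlapped by the antisense Gm11175 and the subunit most often present in resting cells, was the member with values below control in most founder strains. In B6, Jund was at 131 and 119.5 in the controls and at 112 and 93.04 with TM. In CAST, Jund was at 112 and 89.2 in the controls and at 71.7 and 62.6 with TM. In NOD, Jund was at 110.05 and 117 in the controls and at 77.8, 60.9 and 88.8 with TM. In these 3 strains every TM library lay below every control. In 129, Jund was at 112 and 103 in the controls and at 129, 101 and 70.9 with TM. In PWK, Jund was at 159, 109 and 101 in the controls and at 103, 79.8 and 102 with TM. In WSB, Jund was at 162 and 106 in the controls and at 128, 163 and 149 with TM. Values of the groups crossed in each of them. In A, Jund was at 292, 108 and 112 in the controls and at 86.4, 129 and 125 with TM. In NZO, Jund was at 158 and 148 in the controls and at 80.6, 85.9 and 192 with TM. The high values of A control replicate 1 and NZO TM replicate 3 come from libraries that stand apart, and without NZO TM replicate 3 Jund was lowered in NZO (-0.88, log2). The founder mean was 0.790 fold, log2 -0.34 (SE 0.118), adjusted p = 0.016, which missed the threshold, and after the correction for GC content it was 0.02 (adjusted p = 0.70). Jund is the most GC-rich of the members, and the part of base composition in its values was not tested. In xNOD, Jund was at 119, 127 and 114 in the controls and at 133 and 197 with TM. In xCAST, Jund was at 103 and 75.3 in the controls and at 73.7, 70.6 and 98.96 with TM. In xWSB, Jund was at 181, 123 and 72.1 in the controls and at 139.5, 178 and 241 with TM. In xNOD both TM values were above all 3 controls, whereas in both parent strains they lay below. With GC and length corrected the contrast shrank, from log2 0.43 to 0.20 in xNOD, from -0.29 to 0.03 in B6 and from -0.60 to -0.11 in NOD. The F1 mean was 1.12 fold, log2 0.16 (SE 0.118), adjusted p = 0.27, and 0.26 (adjusted p = 2.6e-04) (log2) after the correction.

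**Figure D3:**
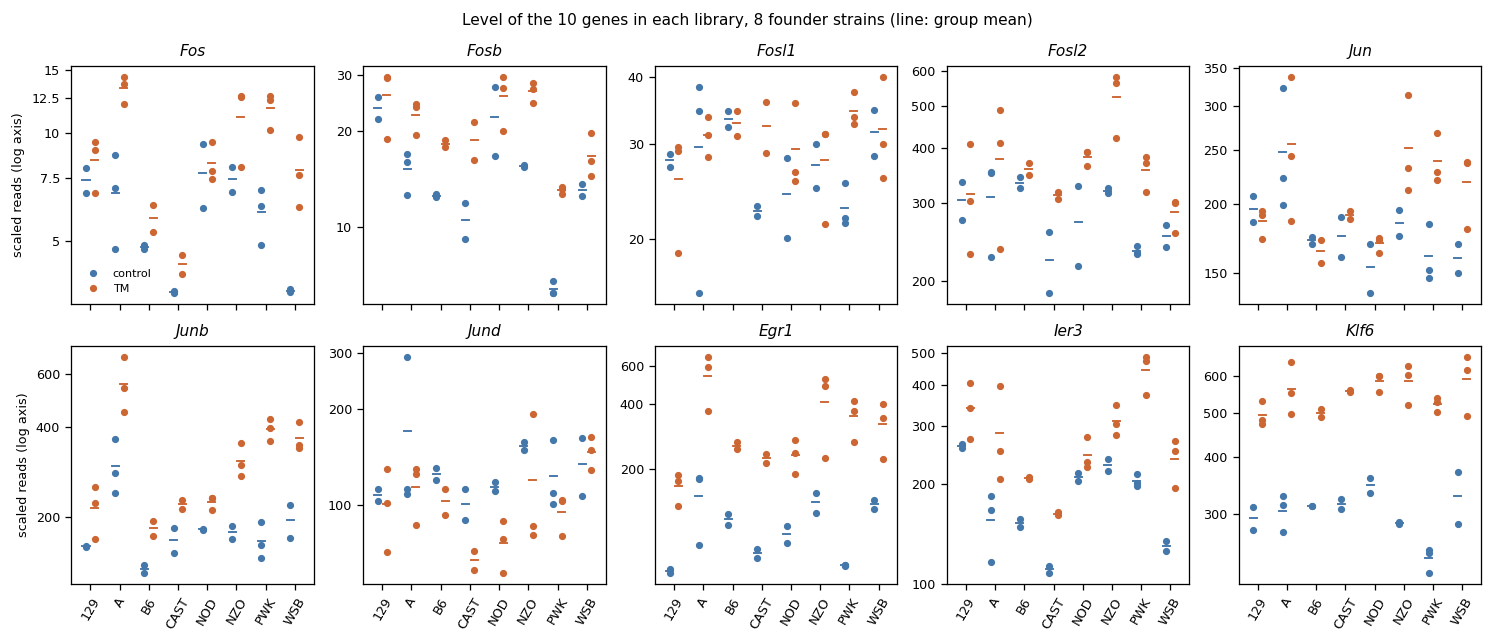
Level of the 10 genes in each founder library (y axis, scaled reads on a log axis), 1 panel per gene and 8 strains along the x axis; blue points are control and orange points TM libraries, and a line marks the group mean. In the panels of Egr1, Klf6, Junb and Ier3 the TM points lie above the controls in all 8 strains, and in that of Jund they lie below them in B6, CAST and NOD.

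Egr1 (chr18:34859823-34864984, + strand), a zinc finger factor switched on by serum response factor and MAP kinases, had the largest response of the 10 in each of the 13 genotypes. In 129, Egr1 was at 68.7 and 65.8 in the controls and at 135, 175 and 188 with TM. In A, Egr1 was at 89.1, 179 and 182 in the controls and at 661, 589 and 369 with TM. In B6, Egr1 was at 124 and 110.0 in the controls and at 248 and 265 with TM. TM libraries lay above all controls in each of these strains. In CAST, Egr1 was at 77.3 and 85.3 in the controls and at 235 and 212 with TM. In NOD, Egr1 was at 91.4 and 109 in the controls and at 238, 271 and 190.01 with TM. In NZO, Egr1 was at 156 and 125 in the controls and at 483, 520.5 and 225 with TM. NZO TM replicate 3 was the lowest of its group, and without the libraries that stand apart NZO was called induced. In PWK, Egr1 was at 72.03, 72.3 and 71.1 in the controls and at 372, 411 and 266 with TM. In WSB, Egr1 was at 129.9 and 144 in the controls and at 344, 401 and 223 with TM. Among founders the change was largest in PWK, 4.79 fold (adjusted p = 4.7e-08), and smallest in B6, 2.20 fold (adjusted p = 1.6e-08), and both were called. The calls of B6 and NOD were lost in 1 fit over all founder libraries. In x129, Egr1 was at 108, 114 and 103 in the controls and at 285, 359 and 219 with TM. In xCAST, Egr1 was at 94.3 and 96.4 in the controls and at 304, 337 and 175 with TM. In xNOD, Egr1 was at 87.7, 95.04 and 87.6 in the controls and at 235 and 152 with TM. Each of these crosses was called. In xNZO, Egr1 was at 89.5, 106 and 109 in the controls and at 238, 189 and 203 with TM. In xWSB, Egr1 was at 54.7, 62.2 and 57.3 in the controls and at 168, 118 and 111 with TM. All 13 genotypes had every TM library of Egr1 above every control library. The change in xWSB was 2.24 fold (adjusted p = 0.051), which was not called. The correction for GC content moved its mean to 1.72 (adjusted p = 6.7e-13) in founders and 1.44 (adjusted p = 2.3e-10) in crosses (log2).

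Klf6 (chr13:5861482-5870394, + strand) is a zinc finger factor of the Krüppel-like family induced by injury and serum. Its 13 folds ran from 1.48 in xWSB to 2.17 in PWK. In 129, Klf6 was at 278 and 311 in the controls and at 483, 472 and 531 with TM. In A, Klf6 was at 275, 328 and 314 in the controls and at 645, 496 and 553 with TM. In B6, Klf6 was at 313 and 313 in the controls and at 490.4 and 509.97 with TM. Of these B6 was called. In CAST, Klf6 was at 309 and 324 in the controls and at 554 and 560.4 with TM. In NOD, Klf6 was at 361 and 334 in the controls and at 601, 602 and 554 with TM. In NZO, Klf6 was at 289 and 285 in the controls and at 633, 606 and 519.8 with TM. Groups did not overlap in any of the 6. In PWK, Klf6 was at 223, 251 and 247 in the controls and at 501, 538 and 527 with TM. In WSB, Klf6 was at 286 and 372 in the controls and at 662, 619 and 492 with TM. The folds of the 5 called strains ran from 1.60 in B6 to 2.17 in PWK. In x129, Klf6 was at 283, 293 and 250.3 in the controls and at 443, 497 and 496 with TM. In xCAST, Klf6 was at 211 and 253 in the controls and at 431, 467 and 370.3 with TM. In xNOD, Klf6 was at 246, 255 and 251 in the controls and at 398 and 389.7 with TM. Folds were 1.74, 1.82 and 1.57. In xNZO, Klf6 was at 265, 275 and 289 in the controls and at 483, 492 and 419.5 with TM. In xWSB, Klf6 was at 177, 243 and 289 in the controls and at 347, 339 and 343 with TM. The F1 values lay apart from their controls in all 5 crosses. Over the whole founder set the lowest TM library (472) lay above the highest control (372). With the GC and length correction the mean response of Klf6 was 0.58 (adjusted p = 4.4e-14) in founders and 0.47 (adjusted p = 5.4e-08) in crosses (log2), under 1.5 fold in both, and 7 of its 9 calls within genotypes were lost. Klf6 has the lowest GC content of the members, and the part of base composition in its values was not tested.

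**Figure D4:**
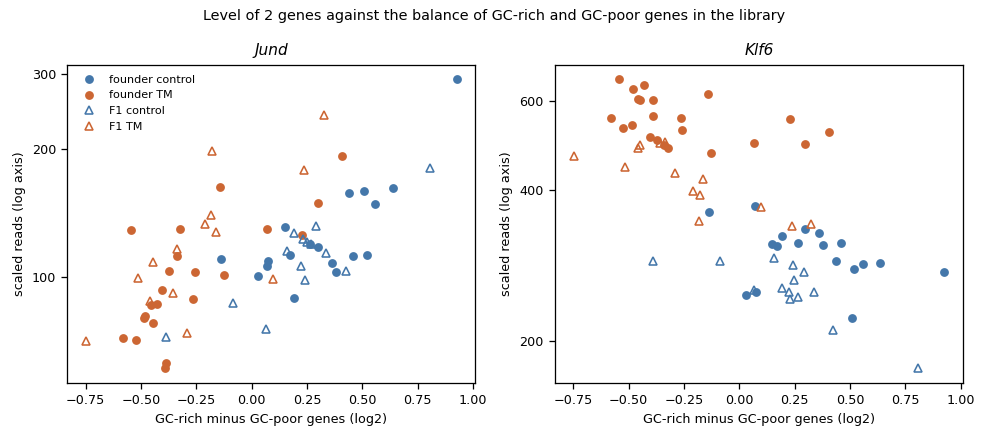
Level of Jund (left) and Klf6 (right) in each library (y axis, scaled reads on a log axis) against the balance of GC-rich and GC-poor genes in that library (x axis, log2). Filled points are founder and open triangles F1 libraries, blue for control and orange for TM. Right of 0 lie 17 of 18 founder controls against 4 of 22 founder TM libraries. Every founder TM point of Klf6 lies above every founder control point.

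Ier3 (chr17:35821684-35822923, + strand), a short early response gene linked to survival and to NF-kB and ERK signalling, had the highest level of the 10 per kb of transcript (161 scaled reads per kb in founder controls, against 82.6 for Junb, 78.2 for Jund, 68.5 for Klf6, 24.2 for Egr1, 2.55 for Fos and 2.32 for Fosb). In PWK, Ier3 was at 215, 202 and 198 in the controls and at 474, 487 and 374 with TM. In WSB, Ier3 was at 134 and 125 in the controls and at 253, 270.2 and 194 with TM. In A, Ier3 was at 117, 167 and 184 in the controls and at 253, 398 and 207 with TM. PWK at 2.16 fold (adjusted p = 4.6e-06) and WSB at 1.83 fold (adjusted p = 0.0065) were called. In CAST, Ier3 was at 107 and 113 in the controls and at 164 and 161 with TM. In B6, Ier3 was at 149 and 157 in the controls and at 211 and 207 with TM. In NZO, Ier3 was at 219 and 239 in the controls and at 305, 347 and 282 with TM. TM libraries lay above the controls in each. In 129, Ier3 was at 264 and 257 in the controls and at 406, 340.3 and 275 with TM. In NOD, Ier3 was at 205 and 217 in the controls and at 234, 278 and 226 with TM. CAST had the lowest Ier3 in either condition, and 129 the highest control level. The founder mean was just past 1.5 fold and fell below it when A control replicate 1 or A TM replicate 2 was left out (0.56 without all the libraries that stand apart). In xCAST, Ier3 was at 140.2 and 127 in the controls and at 286, 294 and 224 with TM. In xNOD, Ier3 was at 155, 172 and 159.5 in the controls and at 247 and 198 with TM. In x129, Ier3 was at 122, 120.4 and 127 in the controls and at 179.6, 206 and 150.1 with TM. Of the crosses xCAST was called at 1.99 fold (adjusted p = 0.0035), and the F1 mean of 1.42 fold, log2 0.51 (SE 0.0847), adjusted p = 3.3e-05 stayed below 1.5 fold. With GC and length corrected the means were 0.72 (adjusted p = 1.7e-08) in founders and 0.53 (adjusted p = 3.0e-06) in crosses (log2), CAST and x129 were called and WSB was not.

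**Figure D5:**
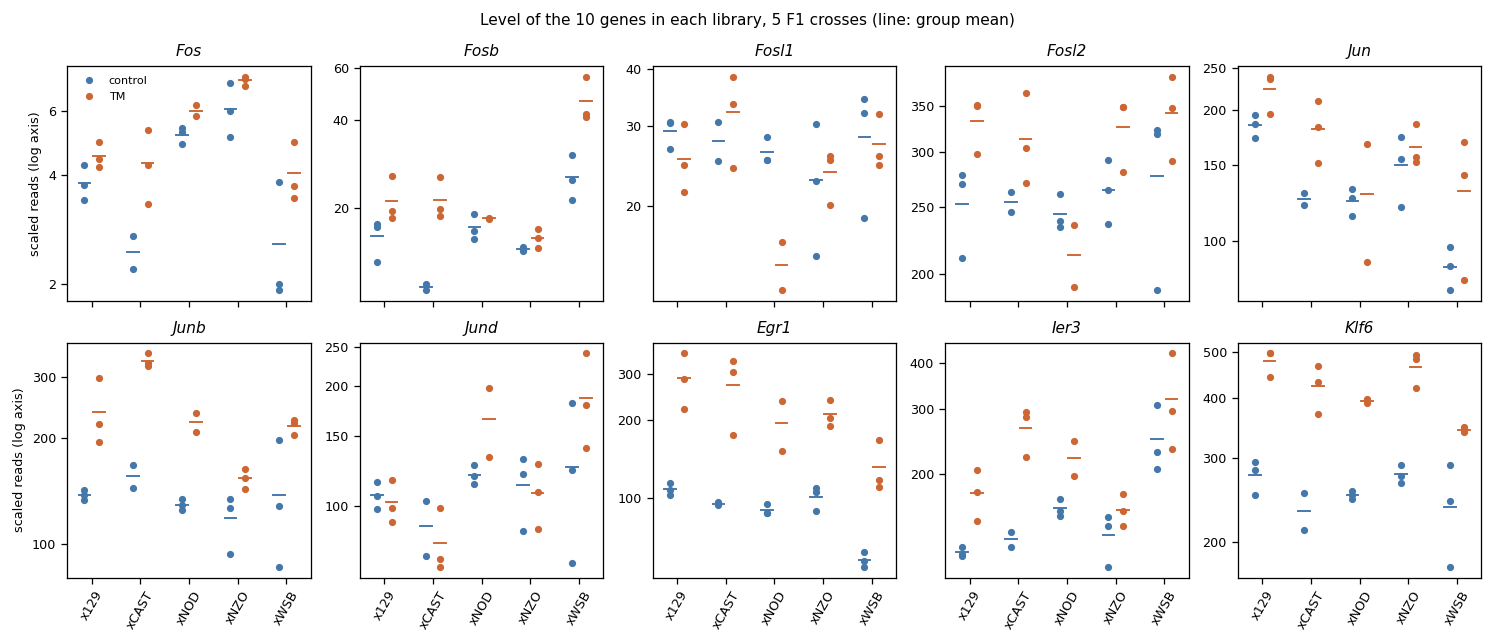
Level of the 10 genes in each F1 library (y axis, scaled reads on a log axis), 1 panel per gene and 5 crosses along the x axis; blue points are control and orange points TM libraries, and a line marks the group mean. TM points of Egr1 lie above the controls in every cross, and both TM points of Fosl1 in xNOD lie below its controls.

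Whether the response itself differed between genotypes was tested as an interaction, since a call in 1 strain and not in another does not show a difference. The test called 0 of 10 members in founders, beside 0.174% of all genes, and 0 of 10 in crosses, beside 0.0547%. At an unadjusted p under 0.05 there were 4 in founders (Fos, Fosb, Junb and Ier3) and 1 in crosses (Fosb), and edgeR called 0 and 0. The smallest adjusted p of the founders was 0.39 for Junb, and after the GC and length correction it was 0.0036, the 1 member then called. Over all genes the founder interaction calls went from 23 to 33 with that correction. As a description, PWK had the highest fold of the 8 strains for 7 members and a median response of 0.99 (log2), while 129 and NOD had the lowest for 4 members each, with medians of 0.14 and 0.26. Among the crosses xCAST had the highest for 8 members, with a median of 0.82, and xNOD the lowest for 5.

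Control levels differed among founder strains for 5 of 10 members, beside 37.2% of all genes, and among crosses for 5 of 10, beside 24.8%. Fos, Fosb, Egr1 and Ier3 were called in both sets, Junb in founders and Jun in crosses. The call of Egr1 in crosses (adjusted p = 0.0087) was lost in 18 of the 28 fits without 1 library, among them those without any 1 control of x129, xNOD or xWSB, and after the GC correction, as was that of Fos in founders after the correction (adjusted p = 0.012). Without the libraries that stand apart Egr1 in crosses was not called either (adjusted p = 0.057). In founders Fosl2 and Klf6 were called with the correction (adjusted p = 0.0033 and 0.0078) and without the libraries that stand apart (adjusted p = 0.0085 and 0.0034), where the count of members was 7. Over all genes the founder count was 6161 without those libraries and 6034 with the correction, against 4915 in the main fit. Fosb had the widest founder range, from a mean of 6.39 in PWK to 23.8 in 129 (3.72 fold, adjusted p = 1.0e-07). In order from low to high it ran PWK, CAST, B6, WSB, A, NZO, NOD and 129, and 4 of the 7 neighbouring pairs overlapped. Ier3 ran CAST, WSB, B6, A, PWK, NOD, NZO and 129, over 2.36 fold (adjusted p = 8.4e-05), with 2 of 7 neighbouring pairs overlapping. Egr1 ran 129, PWK, CAST, NOD, B6, WSB, NZO and A, over 2.23 fold (adjusted p = 0.0065), a call lost without any 1 of 12 control libraries (129 replicates 2 and 3, A 2 and 3, CAST 1 and 3, NZO 2, PWK 1 to 3, WSB 2 and 3) and after the GC correction (adjusted p = 0.038). For Junb the order was B6, 129, PWK, CAST, NZO, NOD, WSB and A (adjusted p = 1.9e-04), and for Fos CAST, WSB, B6, PWK, A, 129, NZO and NOD (adjusted p = 7.2e-04), with 5 of 7 neighbouring pairs overlapping in each. In crosses Jun was lowest in xWSB and highest in x129 (2.12 fold, adjusted p = 0.0045), and Ier3 was highest in xWSB (2.02 fold over x129, adjusted p = 7.2e-04). The Jun call was lost without x129 control replicate 1 or 2 or xWSB control replicate 1 or 3.

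The crosses ask how the response is inherited, and each F1 response was set against the mean of its parents' responses. Of 50 tests 0 were called, beside 0.0111% of all such tests, 4 had an unadjusted p under 0.05 (Junb in xCAST, Fosl1 and Jund in xNOD, Fosb in xNZO), and edgeR called 0. In xNOD the gap was -0.96 (log2, 95% interval -1.62 to -0.30, adjusted p = 0.26) for Fosl1 and 0.88 (interval 0.07 to 1.69, adjusted p = 0.28) for Jund, and with GC and length corrected they were -1.24 (adjusted p = 0.26) and 0.24 (adjusted p = 0.47). Jund in xWSB had a gap of 0.70 (adjusted p = 0.65), which was 1.02 (adjusted p = 0.11) without the libraries that stand apart and 0.37 (adjusted p = 0.50) after the correction. For Junb in xCAST it was 0.67 (adjusted p = 1.00), and 0.60 (adjusted p = 0.16) after the correction, and 0 of the 50 tests were called under either setting. For Egr1 in x129 the gap was 0.17 (interval -0.49 to 0.82). The 5 contrasts share the B6 libraries and are not independent of each other.

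The wider pathway moved in part, and the counts stand beside 6.04% of all genes raised and 5.41% lowered in founders, and 4.95% and 5.54% in crosses. Of 9 AP-1 dimer partners tested, 2 rose and 0 fell in each set: Atf3, a target of PERK and ATF4 signalling (3.28 and 3.01 on the log2 scale in founders and crosses), and Jdp2, which pairs with Jun proteins as a repressor (0.76 and 0.68). Of 25 other immediate early genes 10 rose and 0 fell in each set, 9 of them in both. The founder calls were Atf3 again, the proto-oncogene Myc (1.37), the stress gene Gadd45b (1.13), the Krüppel-like factors Klf10 (0.98) and Klf4 (0.82), the Egr1 paralogue Egr2 (0.84), Ier2 (0.71), Phlda1 (0.67), the antiproliferative gene Btg2 (0.61) and Arc (0.61). In crosses Dusp5, an ERK phosphatase named here after its value was seen, rose (0.60) and Egr2 was not called (0.24). Of 17 upstream kinases and factors 0 passed the threshold in founders by limma and 0 by edgeR. At an unadjusted p under 0.05 there were 4 above and 9 below control, with no share of all genes taken at that level. That level is reached by many genes in the founder mean, where Jund reached it at rank 6027 of 13197. These 2 counts therefore do not set the upstream genes apart from other genes. In crosses 2 of the 17 fell, the Jun kinase kinase Map2k7 (-0.68) and the serum response factor cofactor Mrtfb (-1.04), also named after their values were seen. With GC and length corrected 1 rose and 1 fell there. In founders both were below control too and missed the threshold: Map2k7 at -0.56 (limma, adjusted p = 2.6e-05) was under 1.5 fold, and Mrtfb was at -0.70 (adjusted p = 0.012). Of 10 genes known as AP-1 targets 3 rose in founders, the growth factor Hbegf (0.60) and the metalloproteinases Mmp10 (0.66) and Mmp13 (0.94), and in crosses both metalloproteinases rose. edgeR also called 0 lowered in these lists but the upstream genes of the crosses, and at an unadjusted p under 0.05 those below control numbered 1 and 0 dimer partners, 1 and 2 immediate early genes and 2 and 3 targets in founders and crosses. Median responses in founders were 0.30 for the partners, 0.48 for the immediate early genes, -0.19 for the upstream genes and 0.27 for the targets, where the median of all genes was -0.037 (log2). The lists were chosen with results of these data known.

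Over the 16 founder group means, the genes with levels most like Junb among 11239 were Plk3 (Pearson r 0.933), Ier2 (0.931) and Nupr1 (0.930). For Fos they were Wnt11 (0.908), Slc25a25 (0.894) and Ier3 (0.887), and for Ier3 they were Ubap1 (0.927), Riok3 (0.920) and Rap1b (0.907). These 3 members had the smallest interaction p, and the values describe libraries that all the genes share.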

How the data were processed

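RNA of primary MEFs was sequenced from single-end TruSeq libraries, and whether strand was used is not given in the sources used here. The authors trimmed reads, aligned them with TopHat 1.4.1 to strain-specific genomes, scaled the libraries by TMM in edgeR, removed libraries that lay apart in a principal components analysis, and scaled the rest again. The counter is not given in the sources used here. The deposited values are normalized signal per gene in 13 tables; the tables call them FPKM, but within a library all genes move in whole multiples of the same unit (tolerance 0.1 read), so they are scaled reads not divided by length, and tests designed for FPKM were run on them. Whole reads were recovered in 66 of 68 libraries (not in PWK TM replicate 2 and WSB TM replicate 1). The F1 tables also hold lines for reads on no gene (15.47% to 24.15% of a library), which were left out.

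Libraries were grouped by the labels. TM was compared with control by limma 3.58.1 (R 4.3.3, trend) on log2(value + 0.1), which understates the changes of low genes, over genes with at least 0.5 in at least 2 libraries; calls needed a Benjamini-Hochberg adjusted p below 0.01 over all genes and 1.5 fold. Within-genotype fits gave single responses; 1 fit per set gave mean responses, interactions and control levels (F tests, no fold limit); 1 fit over 68 libraries set F1 against mid-parent. edgeR 4.0.16 on recovered reads was an alternative, as were other pseudocounts, filters, scaling, trend, thresholds, the replicate block and leaving out each library. The GC and length correction (a spline with 4 degrees of freedom per library) and leaving out the 5 libraries that stand apart were added after seeing the data. The fits were tested on simulated data. Tables were read and motifs searched in Python 3.11.15. Positions are from GENCODE, promoters from RefSeq (GRCm38.p6). Named are all members; of other lists, genes called in the founder mean response or every gene of a list of 8 or fewer; and the 3 genes most correlated with each of the 3 members of smallest interaction p. Genes with a mean of at least 2 entered the correlations. Deviations of same-numbered TM and control libraries correlated above 0.1 in every pair of xWSB (0.165 to 0.327 over 3 pairs), 129 (0.130 and 0.489) and NZO (0.301 and 0.316). Whether the numbers mark pairs was not tested. The members and lists were chosen with earlier results of these data known.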

Additional observations from a re-analysis of the deposited data

How the results depend on the processing

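Of the members' single results, 2341 of 2510 under the other settings and 3211 of 3440 with 1 library left out kept their direction and their side of the threshold, and 0 called results reversed. These counts include results that were not called, and interactions and control levels, which have no direction to reverse. Of the 31 induced calls 20 were lost at least once with 1 library left out. The 18 induced calls in founders became 7 and the 13 in crosses 2 when the variance was fitted without a trend on the mean. Over all genes the induced calls went from 2438 to 814 in founders and from 1575 to 632 in crosses. The cause was not tested. The 1 lowered call in crosses was 0 without the trend, in edgeR, in 1 fit over the set and with the GC and length correction, and the founder interaction count of 0 became 1 with that correction. Over all genes that interaction count went from 23 to 33. Leaving out 1 library gave 14 to 24 induced calls in founders and 8 to 14 in crosses (8 without xCAST TM replicate 1), 0 to 1 lowered in founders (1 without CAST control replicate 3 or NZO TM replicate 3, Jund in both) and 0 to 1 in crosses (0 without any xNOD control), 3 to 5 raised in the founder mean and 3 to 3 in the F1 mean. Control levels differed for 4 to 5 members in founders and 3 to 5 in crosses (3 without x129 control replicate 1 or 2, or xWSB control replicate 1 or 3). edgeR made 26 of the calls within genotypes in all, 25 of them among the 31 of limma. 1 fit over the set made 38, with 25 shared, and the GC and length correction made 37, with 23 shared. Over all genes the induced calls in founders and crosses were 2438 and 1575 with the main limma fits, and 2156 and 1702 with edgeR. They were 3440 and 2173 in 1 fit over the set, and 2428 and 1228 with the correction.

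Same-numbered TM and control libraries did not deviate together in general: 11 of 29 pairs correlated above 0.1 (-0.637 to 0.489, median 0.028). All pairs did in xWSB (3 pairs), where 0 members were called with the replicate block as without it, and in 129 and NZO, which have 2 pairs each, too few to read pairing from. In the other genotypes not every pair correlated above 0.1, and pairing itself was not tested. With the number as a replicate block, the 13 induced calls in crosses became 8, where those of all genes went from 1575 to 1293. A count of 14 remained in the 6 founder strains that could be fitted, as without the block. B6 and CAST could not be fitted. Depth limits Fos most, at 16 to 25 reads in its lowest control libraries.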
